A study of Bos taurus with 6 samples.

Results

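Cyclic AMP (cAMP) carries the gonadotropin signal inside granulosa cells, and the genes described here are those that make, sense, place and destroy it. They were taken from the probe annotation of the array by gene symbol: the stimulatory G protein subunit GNAS, the adenylate cyclases (ADCY), the subunits of protein kinase A (PRKAC, PRKAR), the exchange factors RAPGEF3 and RAPGEF4, the A-kinase anchoring proteins (AKAP), the phosphodiesterases (PDE), the CREB factors and the regulators of G protein signalling (RGS). The choice by symbol took 81 genes with 109 probes, of 15216 named genes and 43794 gene probes in all. Of these, 62 genes with 75 probes were above background for at least 1 of the RNAs compared. Only these have a ratio below.

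The RNA came from granulosa cells, the somatic cells that line the follicle and surround the oocyte. All cows were multiparous Holsteins. They were given gonadotropins, then no FSH for 68 hours (coasting), after which the pre-ovulatory follicles were aspirated. Of these, 3 cows received cetrotide, a blocker of the GnRH receptor that lowers pituitary release of LH, and 3 were controls. The dose and schedule of cetrotide are not known here. Each of 6 arrays compared cetrotide RNA with control RNA in 2 colours, with cetrotide RNA in Cy5 on the 3 arrays of slide 1 and in Cy3 on the 3 arrays of slide 2. Arrays at the same position on both slides deviated together and were averaged into 3 dye-swap replicates, so n = 3 for each value below. Which cows were paired on an array, and whether each replicate holds separate cows, is not stated in the labels. The p-values therefore reflect the spread over 3 replicates, which may in part be technical. All values are log2 ratios of cetrotide over control unless another scale is named: a value of 1 is a 2-fold higher signal in cetrotide RNA.

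As background, FSH and LH receptors act through the stimulatory G protein on adenylate cyclases, and the cAMP formed releases the catalytic subunits of protein kinase A from their regulatory subunits. Anchoring proteins hold the kinase at membranes, mitochondria or the nucleus, phosphodiesterases break cAMP down, and the kinase phosphorylates CREB, which switches on genes of steroid synthesis and ovulation. RGS proteins shorten G protein signals by speeding GTP hydrolysis, mostly on the inhibitory and Gq classes.

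Between 53.5% and 82.5% of gene probes were above background on an array, by RNA. The granulosa label was checked with 12 marker genes, of which 11 passed the filter and were above background for both RNAs on at least 4 arrays, among them FSHR, CYP19A1, AMH and INHA, while FOXL2 did not pass. Markers of other cells were also measured: 10 of 12 endothelial, 12 of 15 leukocyte, 9 of 10 epithelial, 9 of 10 theca, 8 of 10 pericyte and smooth muscle and 5 of 10 oocyte genes passed. In replicates 1, 2 and 3 the median ratio of the granulosa list was -0.75, 0.11 and -1.52. For the leukocyte list it was 0.93, 0.02 and 0.97, for the endothelial list 1.10, -0.02 and 0.71, for the epithelial list 0.78, 1.36 and 3.30, and for the theca list 0.86, 0.04 and 0.13. In bulk RNA, fewer cells of a type and less RNA per cell cannot be told apart.

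Across the cAMP genes as a group the ratios lay on both sides of 0. The median of the 62 measured genes was 0.02, with 33 above 0 and 29 below, beside a median of -0.01 and 46.8% above 0 over all 27429 genes and unnamed probes tested. In limma with Benjamini-Hochberg adjustment over all 27429, none of the 62 passed an adjusted p of 0.05 in either direction, and neither did any other gene: the share of all features called was 0% higher and 0% lower. The smallest adjusted p among the cAMP genes was 0.185, for AKAP8L. At an unadjusted p under 0.05, 4 of the 62 were higher in cetrotide RNA (6.45%, against 8% of all features) and 0 were lower (against 6.46%). A share near the background is not a result about these genes, and the words higher and lower below describe means, not calls.

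By size, 11 of the 62 (17.7%) had a mean ratio at least 1.5-fold above 0 and 1 (1.61%) at least 1.5-fold below, against 8.09% and 4.77% of all features. The 11 were PDE3B, ADCY4, ADCY7, AKAP8L, ADCY6, AKAP8, CREB3L2, AKAP6, AKAP1, RGS19 and RGS4, and the 1 was RGS2. The ratio was above 0 on all 6 arrays for 7 genes (11.3%, against 7.86% of all features), namely AKAP1, AKAP8, AKAP8L, ADCY4, ADCY6, PDE1A and PDE3B. It was below 0 on all 6 arrays for 0 genes (against 7.41%). AKAP8L and ADCY4, which stand among the 11 and the 7, passed the filter through cetrotide RNA alone. Such a pass favours ratios above 0, so their place in these counts is not support. The replicates differed widely: the SD over replicates exceeded the size of the mean in 45 of the 62 genes (72.6%, against 64.9% of all features).

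**Figure D1:**
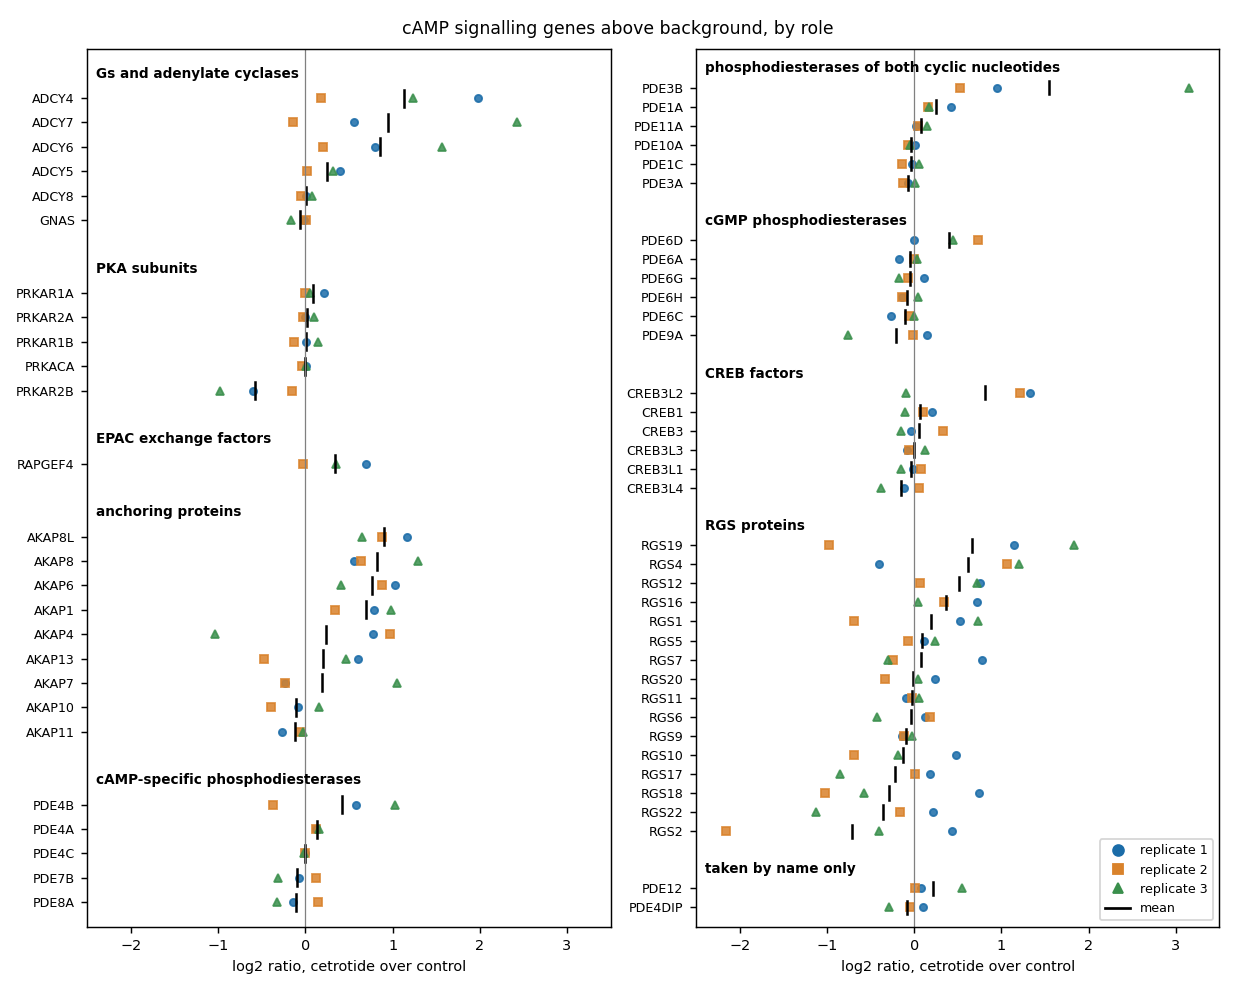
Log2 ratio of cetrotide over control for each of the 62 cAMP signalling genes above background, grouped by role, with 1 symbol per dye-swap replicate and a bar at the mean. The cyclases ADCY4, ADCY6 and ADCY7, the anchoring proteins AKAP1, AKAP6, AKAP8 and AKAP8L, and PDE3B have means of 0.70 or more, while most kinase subunits, CREB factors and other phosphodiesterases lie close to 0.

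The anchoring proteins held all 4 genes with an unadjusted p under 0.05 in limma, which are 6.45% of the 62 against 8% of all features. This grouping was not tested. Of 12 on the array, 9 passed the filter, 7 of them with a mean above 0 (77.8%, against 46.8% of all features), and their median was 0.24. AKAP8L, a nuclear relative of the anchoring protein AKAP8, read 1.32, 0.78 and 0.64 on slide 1 and 1.01, 0.98 and 0.65 on slide 2. All 6 arrays were above 0 and the positions kept similar values on both slides, with a mean of 0.90 ± 0.26 (SD, n = 3; limma adjusted p = 0.185). Its control RNA was above background on 3 of 6 arrays and its cetrotide RNA on 6, so this probe passed the filter through cetrotide RNA alone. A second AKAP8L probe, above background for both RNAs on all 6 arrays, read 0.03 ± 0.04, so the probes of this gene disagree.

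AKAP8, which anchors the kinase in the nucleus and takes part in chromatin condensation at mitosis, read 0.54, 0.64 and 1.31 on slide 1 and 0.56, 0.63 and 1.26 on slide 2. The values at each position were nearly the same on both slides, and the mean was 0.83 ± 0.40 (SD, n = 3; limma adjusted p = 0.245). A second AKAP8 probe above background on all arrays averaged 0.60 ± 0.40. Its replicates read 0.55, 1.03 and 0.23, so it was lowest in replicate 3, where the first probe was highest. Another probe averaged 0.17 ± 0.18, and it was kept through cetrotide RNA alone (4 arrays, against 2 in control RNA). The probe means were thus above 0, but the replicate order differed between probes. AKAP1, which tethers the kinase to the outer mitochondrial membrane, read 0.73, 0.22 and 0.83 on slide 1 and 0.84, 0.45 and 1.12 on slide 2. It was above 0 on every array and lowest in replicate 2, with a mean of 0.70 ± 0.33 (SD, n = 3; limma adjusted p = 0.243).

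AKAP6, known from the nuclear envelope of muscle cells, read 0.45, 0.36 and -0.11 on slide 1 and 1.61, 1.39 and 0.93 on slide 2. Every slide 2 array was above every slide 1 array, so the size of its ratio went with slide and dye orientation, which cannot be told apart. Its mean was 0.77 ± 0.32 (SD, n = 3; limma adjusted p = 0.225). With all 6 arrays fitted with a dye term and the replicate as a random block (correlation 0.852), its adjusted p was 0.0466 (0.0178 to 0.709 over its 18 alternatives), and 411 features were called higher and 264 lower (1.5% and 0.962% of all features). AKAP6 was the only cAMP gene called in that fit, 1 of 62 and so near the share of all features.

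The other anchoring proteins varied between replicates. AKAP13 read 0.61, -0.48 and 0.47 in replicates 1, 2 and 3 and averaged 0.20 ± 0.59 (SD, n = 3). AKAP4, best known from the sperm tail and picked here after its values were seen, read 0.78, 0.97 and -1.04. Replicate 3 thus stood on the other side of 0 from the other two. AKAP7, AKAP10 and AKAP11, which complete the list, had means of 0.19, -0.11 and -0.12. AKAP3, AKAP5 and AKAP12 did not pass the filter.

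Among the cyclases and their G protein, 6 of 10 genes passed the filter and their median was 0.55, with 5 above 0 (83.3%, against 46.8% of all features). ADCY4, a cyclase stimulated by G protein beta and gamma subunits, read 2.18, 0.09 and 1.16 on slide 1 and 1.79, 0.26 and 1.30 on slide 2. It was near 0 in replicate 2 and high in the others, with a mean of 1.13 ± 0.91 (SD, n = 3; limma adjusted p = 0.370). It was above background in cetrotide RNA on 4 arrays and in control RNA on 2, and so passed the filter through cetrotide RNA alone. ADCY6, a cyclase inhibited by calcium, read 1.10, 0.25 and 1.56 on slide 1 and 0.50, 0.15 and 1.57 on slide 2. It too was above 0 on every array and lowest in replicate 2, with a mean of 0.85 ± 0.68 (SD, n = 3; limma adjusted p = 0.371), while its second measured probe averaged 0.01 ± 0.17.

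ADCY7, a cyclase known from blood cells and picked here after its values were seen, read 0.56, -0.14 and 2.43 in replicates 1, 2 and 3. Replicate 3 carried most of its mean of 0.95 ± 1.33 (SD, n = 3), and a second probe averaged 0.06. ADCY5, a close relative of ADCY6, averaged 0.25 ± 0.20 and ADCY8, a calcium-stimulated cyclase, 0.01. ADCY1, ADCY2, ADCY3 and ADCY9 did not pass the filter. The low values of ADCY4, ADCY6 and ADCY7 in replicate 2 were shared by the medians of the endothelial and leukocyte lists, -0.02 and 0.02 there. The log2 summed level of the leukocyte list ran from 12.6 to 13.5 in cetrotide RNA and from 11.6 to 12.7 in control RNA, and that of the endothelial list from 10.6 to 12.8 and from 10.6 to 10.8. In those lists PECAM1, TIE1, CSF1R and LCP1 did not pass the filter, and CD52 was not analysed here. The part of these cells in the cyclase values was not tested.

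GNAS, the G protein subunit that activates the cyclases, was measured by 3 probes that disagreed. The brightest read 0.23, 0.25 and 0.27 on slide 1 and -0.27, -0.23 and -0.59 on slide 2, and averaged -0.06 ± 0.09 (SD, n = 3; limma adjusted p = 0.787). Its sign thus followed the slide on all 6 arrays. The second GNAS probe read 0.37, 1.63 and -1.06 in the replicates and the last averaged 0.09.

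The measured subunits of protein kinase A had ratios near 0 apart from 1 regulatory subunit, but some were dim, where ratios are pulled towards 0. Of 6 subunits 5 passed the filter, with a median of 0.01. PRKAR2B, the type II beta regulatory subunit, which FSH is known to induce in rat granulosa cells, read -0.32, 0.23 and -0.47 on slide 1 and -0.89, -0.53 and -1.50 on slide 2. Of its arrays 5 were below 0 and slide 2 was lower at each position, with a mean of -0.58 ± 0.42 (SD, n = 3; limma adjusted p = 0.347). Its unadjusted limma p was 0.0506 as reported and under 0.05 in 11 of 18 other settings, which reuse the same 6 arrays. The lowest limma adjusted p over those 18 was 0.0747. The granulosa list had medians of -0.75, 0.11 and -1.52 in the same replicates, where PRKAR2B read -0.61, -0.15 and -0.98, and the log2 summed level of that list ran from 16.0 to 17.2 in cetrotide RNA and from 17.0 to 17.3 in control RNA. Whether the share of granulosa cells has a part in this value was not tested. The regulatory subunits PRKAR1A and PRKAR2A averaged 0.09 ± 0.11 and 0.02 ± 0.07, and the catalytic subunit PRKACA -0.01 ± 0.03. PRKAR2A had mean log2 signals of 7.23 in cetrotide RNA and 7.21 in control RNA, and PRKACA 6.86 and 6.87. PRKACA was above background on 3 and 4 arrays, so a ratio near 0 does not show an unchanged level. PRKACB did not pass the filter.

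The exchange factors are the other cAMP sensors, activating the small GTPase Rap. RAPGEF4 was above background in cetrotide RNA on 5 arrays and in control RNA on 0. Its replicates read 0.70, -0.02 and 0.35, for a mean of 0.34 ± 0.36 (SD, n = 3; limma adjusted p = 0.494). As control RNA was not above background on any array, the size of this ratio is uncertain and no lower bound is given. The measured mean corresponds to 1.27-fold, and replicate 2 and the slide 2 mean of 0.07 lay below it. RAPGEF4 passed the filter through its cetrotide RNA alone. RAPGEF3 did not pass the filter.

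**Figure D2:**
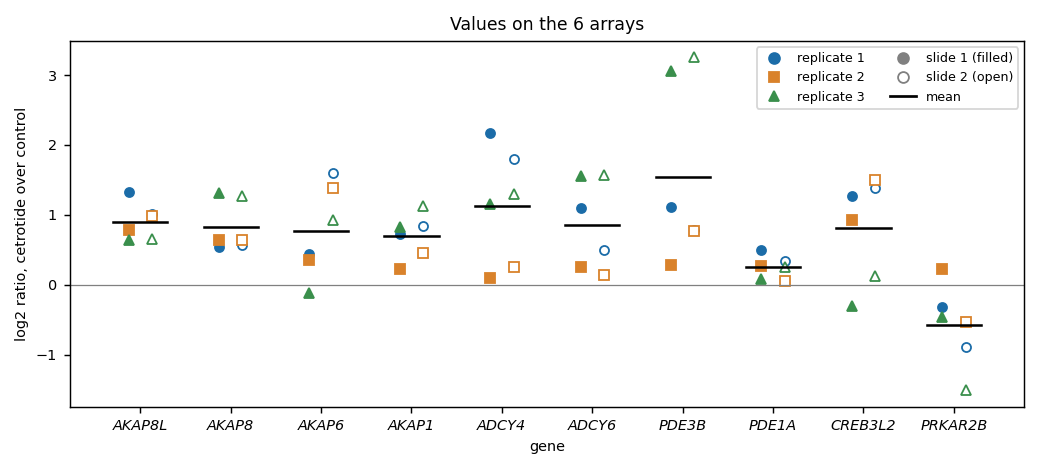
Log2 ratio of cetrotide over control on each of the 6 arrays for 10 genes, with filled symbols for slide 1 (cetrotide RNA in Cy5), open symbols for slide 2 (cetrotide RNA in Cy3), 1 colour and shape per replicate and a bar at the mean. PDE3B lies above 3 on both arrays of replicate 3, and AKAP6 is higher on slide 2 than on slide 1 in every replicate.

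Phosphodiesterases gave the largest mean among the cAMP genes but few other departures from 0. PDE3B, a phosphodiesterase that cGMP inhibits and that insulin activates in fat cells, read 1.12, 0.29 and 3.06 on slide 1 and 0.78, 0.77 and 3.25 on slide 2. It was above 0 on all 6 arrays, and both arrays of replicate 3 lay above 3. The mean was 1.55 ± 1.41 (SD, n = 3; limma adjusted p = 0.416), and without replicate 3 it was 0.74. Replicate 3 was the highest of the 3 for 28 of the 62 cAMP genes and for 11523 of the 27429 features. The epithelial list was likewise highest there, at 3.30, but lowest in replicate 1, whereas PDE3B was lowest in replicate 2. The log2 summed level of that list ran from 13.8 to 17.4 in cetrotide RNA and from 10.8 to 13.8 in control RNA. CDH1 did not pass the filter, and the part of epithelial cells in the PDE3B value was not tested.

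Among the other phosphodiesterases that act on both cyclic nucleotides, PDE1A, activated by calcium and calmodulin, was above 0 on all 6 arrays at 0.25 ± 0.15 (SD, n = 3; limma adjusted p = 0.363). PDE3A, the form that keeps oocytes in meiotic arrest when inhibited, averaged -0.07 ± 0.07, and PDE10A and PDE11A -0.03 ± 0.04 and 0.07 ± 0.07. The group median was 0.02 over 6 of 8 genes, and PDE1B and PDE2A did not pass the filter.

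Of the cAMP-specific phosphodiesterases 5 of 6 passed the filter, with a median of -0.01. PDE4B, an enzyme prominent in leukocytes, read 0.58, -0.37 and 1.03 in replicates 1, 2 and 3 and averaged 0.41 ± 0.72 (SD, n = 3). Replicate 2 alone was below 0, where the leukocyte list had a median of 0.02 with 6 of 12 genes above 0. PDE4A averaged 0.13 ± 0.02, but this small spread hides opposite slides, at -0.18 on slide 1 and 0.44 on slide 2. PDE7B and PDE8A averaged -0.09 and -0.11. PDE4D, which FSH induces in rat granulosa cells, did not pass the filter, and PDE5A, PDE7A and AKAP9 were not analysed here.

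The cGMP phosphodiesterases, mostly enzymes of photoreceptors, had a median of -0.07 over 6 of 7 genes. PDE6D, which despite its name carries prenylated proteins, read -0.0021, 0.73 and 0.45 in the replicates, a mean of 0.39 ± 0.37 (SD, n = 3). PDE6C averaged -0.11 with opposite slides and PDE6H -0.08. Of 4 genes that share the names but not these roles, PDE12 averaged 0.21 and PDE4DIP -0.08.

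The CREB factors, 6 of 7 measured, had a median of 0.02. CREB1, the factor that the kinase phosphorylates, averaged 0.07 ± 0.15 and was above background in control RNA on 3 arrays. CREB3L2, an endoplasmic reticulum protein cut to release a transcription factor for secretory cells, read 1.28, 0.93 and -0.31 on slide 1 and 1.38, 1.50 and 0.12 on slide 2. Replicates 1 and 2 were high and replicate 3 near 0, for a mean of 0.82 ± 0.79 (SD, n = 3; limma adjusted p = 0.440). CREB3, CREB3L1 and CREB3L4 averaged 0.05, -0.03 and -0.15. CREB5 did not pass the filter.

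The RGS genes varied most between replicates. Of 19 on the array 16 passed the filter, with a median of -0.02 and replicate medians of 0.33, -0.14 and 0.01. The median SD over replicates was 0.57 for the RGS genes, against 0.27 for all 62 genes and 0.19 for all features. Replicate 2 was the lowest of the 3 for 8 of the 16, for 30 of all 62 cAMP genes and for 9876 of the 27429 features. RGS genes below an unadjusted p of 0.05 numbered 0.

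RGS2, a brake on Gq signals that LH is known to induce in bovine granulosa cells, read 0.59, -1.93 and -0.16 on slide 1 and 0.28, -2.38 and -0.66 on slide 2. Both arrays of replicate 2 were far below the rest, and the mean of -0.71 ± 1.32 (SD, n = 3; limma adjusted p = 0.681) became 0.01 without that replicate. A second RGS2 probe gave 0.16, -2.02 and -0.39 in the replicates, close to the first. RGS1 and RGS10, both known from leukocytes, read 0.53, -0.69 and 0.74, and 0.48, -0.69 and -0.19. RGS19 and RGS18, the latter known from platelets and both picked after their values were seen, read 1.15, -0.98 and 1.83, and 0.74, -1.03 and -0.58. Replicate 2 was the lowest for each of these genes, although a second RGS18 probe stayed between -0.16 and 0.13.

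The leukocyte markers matched this order only in part. In replicate 2, 6 of the 12 measured were below 0, and 6 were above it, CD74 at 0.74 and CD14 at 0.46 among them. TYROBP read 1.66, -0.85 and 0.43 in replicates 1, 2 and 3, CD53 1.52, -0.65 and 0.92, and AIF1 1.01, -1.03 and 0.46. All 12 were above 0 in replicates 1 and 3, whereas RGS2, RGS10 and RGS18 were below 0 in replicate 3. The part of these cells in the RGS values was not tested.

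**Figure D3:**
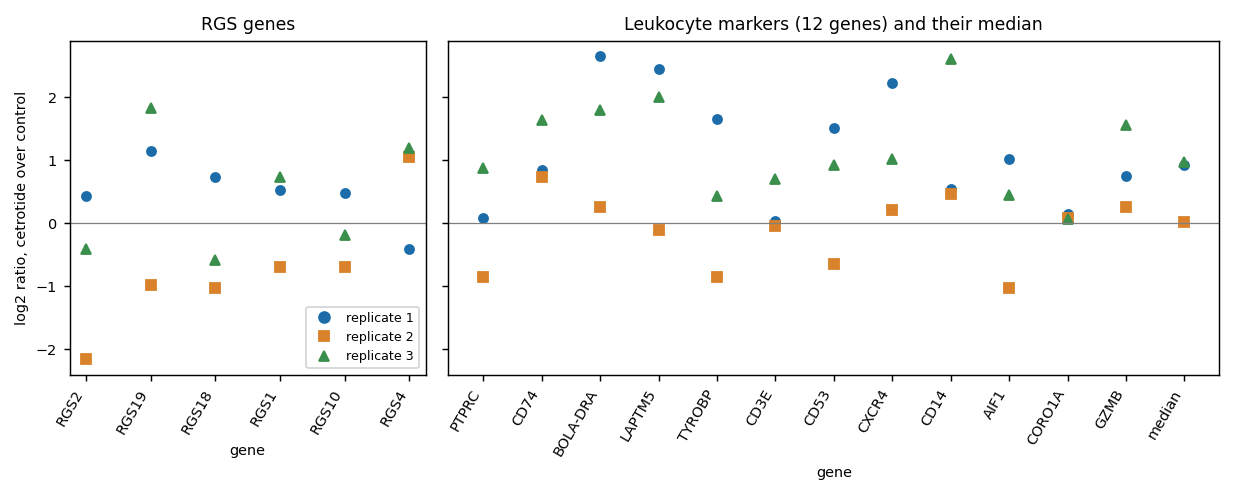
Log2 ratio of cetrotide over control in each of the 3 replicates for 6 RGS genes (left) and for the 12 leukocyte markers above background with their median (right). RGS2 reads -2.16 in replicate 2, and RGS19, RGS18, RGS1 and RGS10 are also lowest there, while RGS4 is lowest in replicate 1.

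Other RGS genes departed from this order. RGS4, a regulator of the Gi and Gq classes, read -0.41, 1.06 and 1.20, a mean of 0.62 ± 0.89 (SD, n = 3). RGS12, a large scaffold with an RGS domain, averaged 0.51 ± 0.39, with 0.88 on slide 1 and 0.15 on slide 2. RGS16, a relative of RGS4, averaged 0.37 ± 0.34, with -0.07 on slide 1 and 0.81 on slide 2. RGS5, a pericyte gene, averaged 0.09 ± 0.15. RGS3, RGS13 and RGS14 did not pass the filter.

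Some ratios changed sign with the slide, and so with dye orientation. In 7 of the 62 genes (11.3%, against 16.8% of all features) all arrays of one slide lay on the other side of 0 from all arrays of the other, among them GNAS, PDE4A and PRKACA. Averaging over both slides cancels a dye effect of equal size on both.

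**Figure D4:**
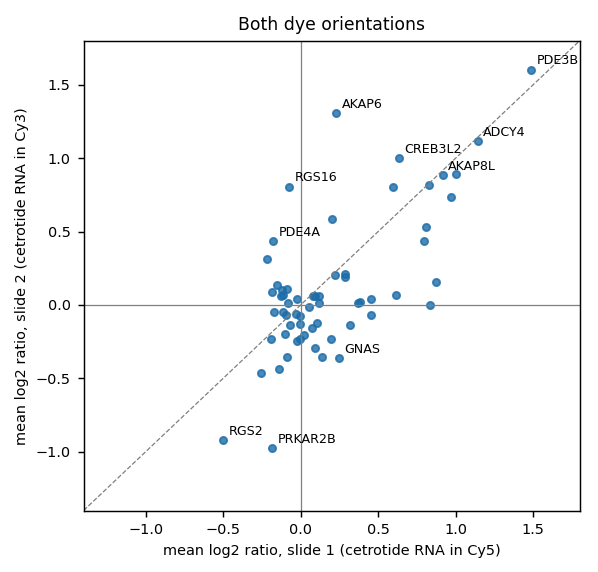
Mean log2 ratio on slide 1 against slide 2 for the 62 genes, with 1 point per gene, the line of equal values dashed and 10 genes labelled. PDE3B, ADCY4 and AKAP8L lie near the dashed line, while AKAP6, RGS16 and PDE4A have higher ratios on slide 2 and GNAS a lower one.

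Other genes of the pathway, outside the symbols above, were counted from a list of 55, of which 44 passed the filter and some were not analysed here; FSHR, CYP19A1 and INHA stand in it and in the granulosa list. Their median was 0.17, with 30 above 0 (68.2%, against 46.8% of all features). The list was chosen with earlier results of these data known, so these shares are not support. It also holds the 18 induced transcripts of the next paragraph, so the counts of both paragraphs overlap. Unadjusted p-values under 0.05 were found for 12 of the 44 with higher and 2 of the 44 with lower signal (against 8% and 6.46% of all features). In limma 0 passed the adjusted threshold. Upstream, the FSH receptor gene FSHR read -0.75, 0.11 and -2.43 in the replicates, and LHCGR did not pass the filter. The adenosine receptor gene ADORA2B, which couples to the stimulatory G protein, averaged 2.12 ± 1.57 (SD, n = 3), and GPR3, a receptor that keeps cAMP high without ligand, 0.51 ± 0.24. GNAI2, an inhibitory G protein subunit, averaged 1.21 ± 0.67, and ARRB2, an arrestin that uncouples receptors, 1.58 ± 0.41 (limma adjusted p = 0.178). PKIA, an inhibitor of the kinase, read -0.85, 0.22 and -2.45. No fixed rule chose the genes named from this list. Others had means near 0, among them PTGER2 at 0.05, GNAI3 at -0.06, GRK2 at 0.02 and PKIG at -0.01.

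Transcripts that cAMP and CREB are known to induce mostly had means above 0, but did not all share one direction. Of 18 listed, which are part of the list above, 16 passed the filter, with a median of 0.38 and 13 above 0 (81.2%, against 46.8% of all features). An unadjusted p under 0.05 in limma was found for 4 of the 16 with higher and 1 of the 16 with lower signal, against 8% and 6.46% of all features. The list was chosen with earlier results of these data known. The higher ones were JUNB at 1.54 ± 0.30, NR4A1 at 0.99 ± 0.52, FOSB at 1.35 ± 0.84 and STAR, which moves cholesterol into mitochondria, at 3.13 ± 1.96 (SD, n = 3). The lower one was CYP19A1, the aromatase of estradiol synthesis, at -1.01 ± 0.57. Among the cofactors CRTC2, a CREB coactivator, averaged -0.40 ± 0.12 (limma adjusted p = 0.223) and its relative CRTC1 0.36 ± 0.24.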

How the data were processed

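Bovine granulosa cell RNA of 3 cetrotide and 3 control cows was measured on 6 arrays in 2 colours. Per the labels' protocols, RNA went through 2 rounds of T7 amplification and chemical labelling, steps that can add spread and dye bias. The deposited tables hold raw spot intensity and local background, per the file headers not background corrected; no source used here names the scanner or its software. The authors also deposited processed log ratios, taken as log2, centred near 0 (column medians -0.00191, -0.000108, 0.000134, 0.00229, 0.00214 and 0.00748); all columns ran cetrotide over control, and the normalization steps stay unknown.

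Using limma 3.58.1 in R 4.3.3, mean intensities were corrected with normexp (offset 50) and normalized by loess within arrays. A probe was above background where it exceeded the 0.95 quantile of 153 negative control spots, and was kept if cetrotide RNA or control RNA was above on at least 4 of 6 arrays. This left 31769 probes. The wording of the filter also allowed an array-by-array reading, which was tried first and is given as an alternative. The brightest kept probe stood for a gene. Of 43794 gene probes 21790 had a symbol and 22004 had none, and 1524 symbols were updated through the RefSeq gene table. Deviations from slide means correlated at 0.900, 0.934 and 0.954 for arrays of the same position and at -0.706 to -0.00759 for others, so the position numbers pair the arrays; the pairing comes from this check, not from the labels. Replicates were tested against 0 with lmFit and eBayes.

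Median probe intensity was 107 to 313 over median negative controls of 78.7 to 247, so dim ratios are pulled towards 0, and the number of arrays limits precision. Of the 62 cAMP genes, 38 had a mean log2 signal under 8 in both RNAs, as did 15973 of all 27429 features. The genes and lists were chosen with earlier results of these data known. Genes were named by role (the 3 smallest p in each), by sign on all arrays, by detection in 1 RNA, and from a list of well-known members. Fits were also run on simulated data, which is not used here as support for any call, those with the replicate block included. Alternatives covered background, normalization, probe filter and choice, slide, block and single replicates.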

Additional observations from a re-analysis of the deposited data

Results flagged for a closer look

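In 7 genes every array of slide 1 lay on one side of 0 and every array of slide 2 on the other. The slides differ in dye orientation and possibly in other ways, and the differences were not tested. As slide 1 minus slide 2, the mean log2 ratio differed by 0.61 for GNAS, 0.49 for PDE6C, 0.38 for RGS9 and 0.22 for PRKACA. It differed by -0.61 for PDE4A, -0.22 for PDE4C and -0.18 for RGS11.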

How the results depend on the processing

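Of 40 named genes under up to 18 alternatives (701 values), 35 values changed sign and 21 genes kept theirs throughout, AKAP1, AKAP6, AKAP8, AKAP8L, ADCY4, ADCY6, PDE3B, CREB3L2 and PRKAR2B among them. Many of these values could not change. Both 6-array fits leave the mean ratio as it was, as do the filter and probe settings for many genes. Genes with several kept probes have no value in the setting with each probe alone. A kept sign is therefore weak evidence. The lowest AKAP8L value, 0.03, came with the filter for both RNAs on all arrays, which leaves its other probe. Adjusted calls over all features were 0 and 0 except in the following alternatives. The replicate block gave 411 higher and 264 lower (1.5% and 0.962% of all features), with AKAP6 the only cAMP gene, 1 of 62 and so near that share. Taking 6 arrays as independent, which counts repeat arrays as separate samples, gave 1806 and 1458 (6.58% and 5.32%). The cAMP genes called there were AKAP1, AKAP6, AKAP8 and AKAP8L, 4 of 62 and so near the share of all features. Slide 2 alone gave 662 and 225 (2.41% and 0.82%), with 0 cAMP genes. Genes of the group higher at an unadjusted p under 0.05, 4 as reported, numbered 8 with median pixel intensity (against 7.14% of all features), 11 with the replicate block (10.5%), 15 without it (14.8%), 9 on slide 1 (7.61%), 8 on slide 2 (15%) and 4 to 10 leaving out a replicate (10 without replicate 2, against 6.93%, and 8 without replicate 3, against 11%). Those lower, 0 as reported, numbered 4 on slide 2, 0 to 1 leaving out a replicate and 1 with normexp offset 0, median pixels, the authors' table, no filter, the strict filter, the median over probes, each probe alone and both 6-array fits; the share of all features lower was 13.7% on slide 2 and 2.77% to 12.6% in the others. The group median, 0.016, was 0.0922 under the strict filter and 0.0857 on slide 1. The array-by-array reading of the filter, added after seeing the data, kept 63 genes and left 4 higher and 0 lower.

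These values changed sign. On slide 1 alone CREB3 read -0.215, GNAS 0.249, PDE4A -0.176, PDE6C 0.136, PDE7B 0.0231, PRKACA 0.104 and RGS16 -0.0726. On slide 2 alone CREB3L1 read 0.0623, PDE10A 0.0168, PDE4B -0.00263, PRKAR2A -0.0119 and RGS5 -0.137. With median pixels CREB3 read -0.0342, PDE10A 0.0199 and PRKAR1A -0.0561; in the authors' deposited table -0.0590, 0.000609 and -0.0474. Without background correction CREB3 read -0.0140 and PRKACA 0.00358; with median centring PRKACA 0.00113 and PRKAR1A -0.00395; with scaling between arrays PRKACA 0.00932. The median over probes gave GNAS 0.0591. The causes were not tested. Leaving out 1 replicate turned further values; the ranges were -0.00436 to 0.538 for AKAP13, -0.0929 to 0.148 for CREB3, -0.0879 to 0.0306 for CREB3L1, -0.172 to 0.0228 for PDE4DIP, -0.197 to 0.0212 for PDE7B, -0.232 to 0.00295 for PDE8A, -0.0172 to 0.00781 for PRKACA, -0.0170 to 0.0483 for PRKAR2A, -0.0791 to 0.633 for RGS1, -0.440 to 0.145 for RGS10 and -1.28 to 0.0141 for RGS2. Depth here is signal over background. Of the named genes, ADCY4, AKAP8L, CREB1, CREB3, CREB3L4 and RAPGEF4 were above background in control RNA on 3 arrays or fewer.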
